A study of Mus musculus with 24 samples.

Results

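The genes described here are 8 genes that mark monocytes entering injured tissue and the states that macrophages take there: Lyz2, Ly6c2, Plac8, Chil3, Mrc1, Msr1, Ms4a7 and Cd14. They were taken by name out of the 21965 genes of the count table, and all 8 had at least 10 counts over the 24 libraries. The study followed polysome-associated RNA of the mouse spinal cord after a moderate contusion. Total RNA is the input RNA of the lysed tissue, from all of its cells. OL is the RNA pulled down with tagged ribosomes of oligodendrocytes, the myelin-forming cells. Both were sequenced from the same tissue in naive mice and in mice killed 2, 10 or 42 days after injury (dpi 2, dpi 10 and dpi 42), with 3 libraries in each of 8 groups.

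In all mice, the naive ones included, tamoxifen lets a CreERT2 under a promoter of the oligodendrocyte lineage switch on the ribosomal protein RPL22 with a hemagglutinin (HA) tag. All had received tamoxifen. The injured groups received 50 kdyn at the T9 vertebra in female mice, and naive mice were uninjured. The labels give an age of 10 to 12 weeks at injury, while the study's methods give a lower range. Naive and dpi 42 mice were collected at the same age, so mice injured at one age and collected at dpi 2 or dpi 10 were younger than their naive controls, and age and injury cannot be told apart in those comparisons. Each library came from a pool of 2 mice, and the tissue was a short segment with the lesion in it. Mice were perfused with saline before dissection. That promoter limits the tag to cells in which it was active when tamoxifen was given. Monocytes, macrophages and microglia are therefore not meant to carry the tag, and their transcripts are measured here mainly through total RNA.

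Blood monocytes leave the circulation after tissue damage and become macrophages, joining the microglia that already live in the spinal cord. Classical monocytes of the mouse carry the surface protein Ly6C. Macrophages exposed to interleukin 4 or interleukin 13 induce the mannose receptor and chitinase-like proteins through the transcription factor STAT6, a state called alternative activation. Bacterial lipopolysaccharide (LPS) and interferon gamma instead induce nitric oxide synthase and inflammatory cytokines, a state called classical activation. In the injured spinal cord, lipid and myelin debris are taken up through scavenger receptors.

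The libraries held 25840127 to 32987841 counts on genes (median 29062636). The 10 oligodendrocyte markers summed to 20128 to 29156 CPM (counts scaled to a common library size, with TMM factors) in total RNA and to 102033 to 170492 in OL. All 10 were OL enriched at each of the 4 times. Both libraries of dpi 2 pool 2 held 2414 and 2604 counts on Y-linked genes, although the labels say female, against 13 or fewer in the other 22 libraries. For dpi 42 total RNA replicate 2 and OL replicate 1, the title and source name contradict the description and the column name. The kind of RNA was taken from the description. Calls below that changed without any of these 4 libraries are named where they stand.

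Near-identical copies can take or give reads, so the coding sequences are shown first for the members that have them. Of the 75-base stretches of the protein-coding transcripts, 20.7% were shared between Ly6c2 and Ly6c1, 5.96% between Lyz2 and Lyz1, and 13.7% between Chil3 and its copies Chil4 and Gm6522. None were shared for the other 5 genes. Over the coding sequence, Ly6c2 and Ly6c1 were identical at 80.7% of aligned positions (48 gap positions included), Lyz2 and Lyz1 at 95%, and Chil3 and Chil4 at 94.4%. The following stretches of 90 coding bases come from the GENCODE transcripts of build GRCm38, in the direction of transcription, with capitals at the bases that differ within a pair. They begin at coding base 1 for the Ly6c pair, 43 for the lysozyme pair and 827 for the chitinase-like pair.
Ly6c2: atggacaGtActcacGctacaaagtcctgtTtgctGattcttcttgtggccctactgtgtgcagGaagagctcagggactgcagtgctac
Ly6c1: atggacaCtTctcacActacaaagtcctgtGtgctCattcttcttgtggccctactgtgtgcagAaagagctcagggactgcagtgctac
Lyz2: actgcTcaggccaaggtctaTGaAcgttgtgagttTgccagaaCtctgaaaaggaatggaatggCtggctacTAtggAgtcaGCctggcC
Lyz1: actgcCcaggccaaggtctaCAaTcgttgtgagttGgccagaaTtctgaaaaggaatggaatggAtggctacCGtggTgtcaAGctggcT
Chil3: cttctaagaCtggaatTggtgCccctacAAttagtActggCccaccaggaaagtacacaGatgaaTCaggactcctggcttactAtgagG
Chil4: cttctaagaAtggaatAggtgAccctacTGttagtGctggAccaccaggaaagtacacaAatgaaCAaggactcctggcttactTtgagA
The pairs differed at 6, 13 and 12 of the 90 bases. Each stretch was picked as the gap-free window of that length in which its pair differed most. Lyz1, the lysozyme of the gut, rose to 4.49 ± 0.81 CPM at dpi 10 (SD, n = 3) against 2496 ± 448 for Lyz2. Chil4 had no count in any library. Ly6c1, which endothelial cells carry, stood at 19.6 ± 6.19 CPM in naive total RNA, far above Ly6c2 at 0.0321, and the part of misassigned reads in the Ly6c2 values was not tested. How the authors' counting treated shared reads is not given in the sources used here.

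The RefSeq promoter table (GRCm38.p6) matched 6 of the 8 genes with 9 start sites. Msr1 was not matched, and no sequence is given for Cd14. The 250 bases before each start were searched on both strands for 3 motifs of factors known from macrophages. These were PU.1 (GAGGAAGT), C/EBP (TTGCNNAA) and STAT6 (TTC and GAA spaced by 4 bases of any kind). The motifs were present in 2.44%, 9.56% and 5.85% of all 32851 windows of the same length. The 250 bases before the start are shown for a member that was highest at dpi 10 (Ms4a7, chr19:11336147-11336396), one that was highest at dpi 2 (Chil3, chr3:106167565-106167814) and the monocyte marker Ly6c2 (chr15:75111972-75112221). All 3 are given on the minus strand, which is the strand of the gene, and capitals mark a motif match.
Ms4a7: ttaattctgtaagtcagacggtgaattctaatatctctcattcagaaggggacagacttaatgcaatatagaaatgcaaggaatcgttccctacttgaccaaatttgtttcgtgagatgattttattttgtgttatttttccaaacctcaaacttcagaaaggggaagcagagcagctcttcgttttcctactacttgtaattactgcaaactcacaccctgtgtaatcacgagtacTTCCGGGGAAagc
Chil3: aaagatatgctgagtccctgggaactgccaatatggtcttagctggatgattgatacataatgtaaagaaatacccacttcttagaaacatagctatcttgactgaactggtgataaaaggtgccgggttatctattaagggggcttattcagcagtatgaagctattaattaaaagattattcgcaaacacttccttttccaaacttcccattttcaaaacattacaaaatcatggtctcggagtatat
Ly6c2: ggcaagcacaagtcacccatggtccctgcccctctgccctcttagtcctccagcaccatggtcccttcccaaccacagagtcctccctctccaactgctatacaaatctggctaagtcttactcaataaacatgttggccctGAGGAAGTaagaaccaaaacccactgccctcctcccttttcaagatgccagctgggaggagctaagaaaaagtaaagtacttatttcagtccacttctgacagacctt
Ms4a7 held a STAT6 match 13 bases before the start shown and Ly6c2 a PU.1 match 108 bases before its start. The same site lies 142 bases before another start of Ly6c2, which held a further PU.1 match 8 bases upstream, and a start of Plac8 held a C/EBP match 12 bases and a STAT6 match 153 bases upstream. Bases after a start were not searched. In the 250 bases before the start, Chil3, Lyz2, Mrc1 and the other start of Ms4a7 and of Plac8 held none of these letters.

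In total RNA, every one of the 8 genes rose at dpi 2 and at dpi 10, and 5 of 8 passed the test at dpi 42. A gene was called when its log2 fold change passed 1 in either direction with an adjusted p under 0.05 in edgeR's quasi-likelihood test (Benjamini-Hochberg over the 17167 genes tested). By the same rule 10.0% of all genes rose at dpi 2, 9.20% at dpi 10 and 6.66% at dpi 42. The median log2 fold change of the 8 genes was 5.64, 5.86 and 4.00, against -0.10, -0.10 and -0.08 over all genes tested. In bulk tissue, more cells of a type and more RNA per cell cannot be told apart, and this holds for every change below.

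**Figure D1:**
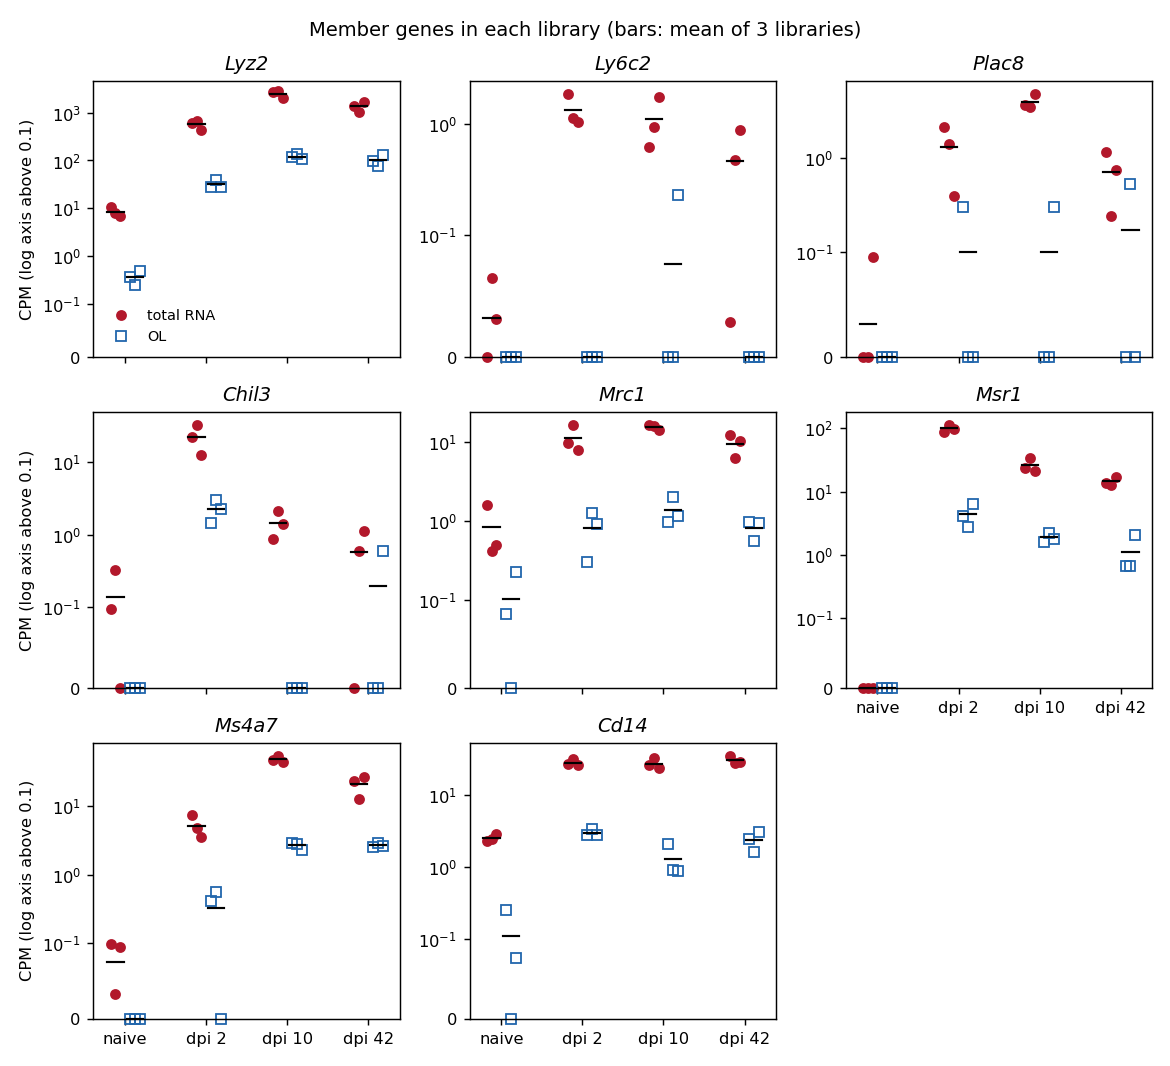
CPM of the 8 genes in each library, with total RNA as filled circles, OL as open squares and the mean of the 3 libraries as a bar. The axis is logarithmic above 0.1 and linear below. Chil3 and Msr1 were highest at dpi 2 and Lyz2, Plac8 and Ms4a7 at dpi 10, and the OL squares lie under the total RNA circles at dpi 2 and dpi 10 for all 8.

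Lyz2 (ENSMUSG00000069516, GRCm38 chr10:117277331-117282321, minus strand) encodes lysozyme M, an enzyme that cuts bacterial cell walls and is made in bulk by monocytes, macrophages and neutrophils. Its 3 naive total RNA libraries had 10.8, 7.83 and 7.07 CPM. The dpi 2 libraries had 615, 683 and 425, those at dpi 10 had 2631, 2861 and 1996, and those at dpi 42 had 1377, 1020 and 1695. No 2 of the 4 groups overlapped. The log2 fold change against naive was 6.07 ± 0.28 at dpi 2 (SE, adjusted p = 3.1e-12), 8.19 ± 0.31 at dpi 10 (9.7e-14) and 7.31 ± 0.30 at dpi 42 (6.7e-13). Lyz2 made up 66.2% to 79.7% of the summed CPM of the 8 genes in naive and dpi 2 total RNA and 94.1% to 95.6% at dpi 10 and dpi 42.

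Ly6c2 (ENSMUSG00000022584, chr15:75108158-75111970, minus strand) encodes the Ly6C protein by which classical monocytes are sorted. It had 3 counts in the 3 naive libraries together. The dpi 2 libraries had 1.88, 1.14 and 1.06 CPM, the dpi 10 libraries 0.623, 0.952 and 1.78, and the dpi 42 libraries 0.0286, 0.479 and 0.882. The dpi 2 and dpi 10 libraries lay above all naive ones, while dpi 42 overlapped them. The ratio to naive was 42.5 at dpi 2 (95% counting interval 14.2 to 208, adjusted p = 0.023) and 34.8 at dpi 10 (11.6 to 171, adjusted p = 0.033). At dpi 42 it was 14.4 (4.64 to 72.3), which missed the threshold with an adjusted p of 0.12. The intervals cover counting error and no spread between pools. Fitted log2 fold changes with 1 library left out ran from 4.70 to 6.07 at dpi 2 and 4.42 to 5.79 at dpi 10. At dpi 42 they ran from 2.83 to 4.53. With 1 library left out, the dpi 2 call was lost without naive replicate 1 or 3 or dpi 2 replicate 1 (adjusted p 0.055 to 0.081). The dpi 10 call was lost without any naive library, dpi 2 replicate 1, or dpi 10 replicate 2 or 3 (0.05 to 0.11).

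Plac8 (ENSMUSG00000029322, chr5:100553725-100572245, minus strand) encodes a small cysteine-rich protein found in classical monocytes and other myeloid cells. Naive replicates 1 and 2 had no count and replicate 3 had 3. The dpi 2 libraries had 2.13, 1.41 and 0.393 CPM, the dpi 10 libraries 3.65, 3.4 and 4.7, and the dpi 42 libraries 1.14, 0.24 and 0.74. All injured libraries lay above the naive ones, and those at dpi 10 lay above those at dpi 2 and dpi 42. The ratio to naive was 41.3 at dpi 2 (95% counting interval 13.8 to 203, adjusted p = 0.033) and 122 at dpi 10 (41.3 to 592, adjusted p = 0.011). At dpi 42 it was 22.2 (7.3 to 110, adjusted p = 0.099, and 0.028 when the spread was estimated from the compared groups alone). The dpi 2 call was lost without naive replicate 1 or 2 or dpi 2 replicate 1 or 2 (0.06 to 0.11). The dpi 10 call was lost without naive replicate 1 or 2 (0.052 and 0.053). Fitted log2 fold changes of 5.18, 6.76 and 4.30 fell as low as 4.64, 6.23 and 3.77 with 1 library left out. Without naive replicate 3 they rest on a group at 0, so no upper end is given.

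Chil3 (ENSMUSG00000040809, chr3:106147554-106167564, minus strand) encodes Ym1, a chitinase-like lectin without enzyme activity that alternatively activated macrophages secrete and that young monocytes also express. The naive libraries had 0.0984, 0.322 and 0 CPM. The dpi 2 libraries had 21.9, 32.3 and 12.6, the dpi 10 libraries 0.86, 2.13 and 1.41, and the dpi 42 libraries 0, 0.599 and 1.11. The dpi 2 libraries were above all others, the dpi 10 libraries still above naive, and dpi 42 overlapped naive. The log2 fold change was 7.27 ± 1.37 at dpi 2 (adjusted p = 0.00043), 3.35 ± 1.23 at dpi 10 (0.047) and 1.99 ± 1.24 at dpi 42 (0.28). With 1 library left out it ran from 6.70 to 8.72 at dpi 2 and from 2.77 to 4.8 at dpi 10. Both were highest without naive replicate 2, which leaves 3 naive counts. At dpi 42 it ran from 1.07 to 3.44. The dpi 10 call was lost with DESeq2 (0.11), without both libraries of dpi 2 pool 2 (0.072), and without any 1 of 9 libraries: naive replicates 1 and 3, all of dpi 2 and dpi 10, and dpi 42 replicate 2 (0.055 to 0.15).

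Mrc1 (ENSMUSG00000026712, chr2:14229392-14332057, plus strand) encodes the mannose receptor CD206, carried by alternatively activated macrophages and, in the healthy central nervous system, by macrophages of the meninges and vessels. The annotation places the microRNA gene Mir511 inside Mrc1 without exon overlap. Naive libraries had 1.61, 0.419 and 0.507 CPM. Those at dpi 2 had 9.66, 16.3 and 7.92, those at dpi 10 had 16.5, 15.9 and 14.1, and those at dpi 42 had 12.2, 6.35 and 10.2. Mrc1 rose at all 3 times, by 3.74 ± 0.60 (adjusted p = 3.9e-05), 4.19 ± 0.61 (1.9e-05) and 3.50 ± 0.59 (0.0002) on the log2 scale, and the dpi 2 libraries overlapped those of dpi 10 and of dpi 42. With 1 library left out these values ran from 3.38 to 4.6, 3.87 to 5.05 and 3.18 to 4.36, highest without naive replicate 1.

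Msr1 (ENSMUSG00000025044, chr8:39581685-39642673, minus strand) encodes the class A scavenger receptor, which binds oxidised lipoproteins and other charged ligands. It had no count in any of the 3 naive total RNA libraries or the 3 naive OL libraries, which allows up to 0.0967 CPM in total RNA (3 counts in a library of mean size). It had 87.3, 113 and 98.8 CPM at dpi 2, then 23.4, 33.3 and 20.8 at dpi 10 and 13.8, 12.5 and 17.1 at dpi 42. The 3 injured groups did not overlap. Against that limit Msr1 was at least 1032-fold higher at dpi 2 (adjusted p = 4.3e-10), at least 267-fold at dpi 10 (2.6e-09) and at least 149-fold at dpi 42 (1.5e-08).

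Ms4a7 (ENSMUSG00000024672, chr19:11321039-11336146, minus strand) encodes a membrane protein of the MS4A family that macrophages of blood origin and of the brain borders express and that resting microglia largely lack. The naive libraries had 0.0984, 0.0322 and 0.0951 CPM. The dpi 2 libraries had 7.42, 4.76 and 3.54, the dpi 10 libraries 48.6, 55.3 and 45.3, and the dpi 42 libraries 23.8, 12.8 and 26.9. All 4 groups were separate, with dpi 10 above dpi 42 and dpi 42 above dpi 2. The log2 fold change was 6.05 ± 0.63 (adjusted p = 5.3e-07), 9.29 ± 0.66 (5.5e-09) and 8.06 ± 0.65 (5.1e-08) at dpi 2, 10 and 42.

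Cd14 (ENSMUSG00000051439, chr18:36725067-36726798, minus strand) encodes the co-receptor that hands LPS to the TLR4 complex. It had 2.3, 2.45 and 2.88 CPM in naive tissue. It then had 26.7, 31.2 and 26.1 at dpi 2, 26.2, 32.8 and 23.4 at dpi 10, and 35.2, 27.8 and 28.5 at dpi 42. All injured libraries lay above naive, and the 3 injured groups overlapped. The log2 fold change was 3.46 ± 0.36 (adjusted p = 2.2e-07), 3.43 ± 0.36 (3.5e-07) and 3.58 ± 0.36 (3.7e-07).

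**Figure D2:**
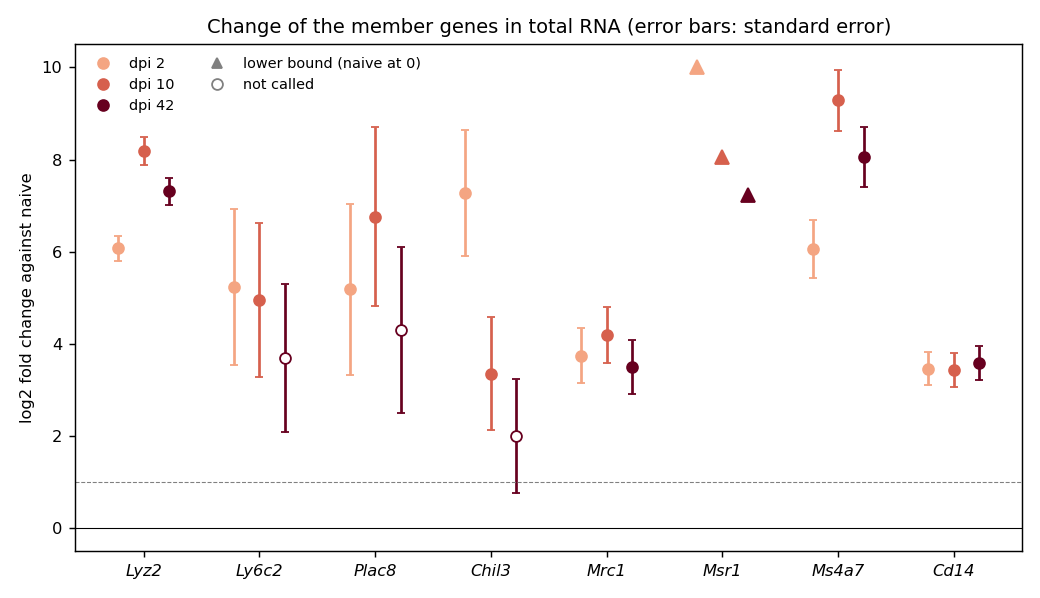
Log2 fold change against naive in total RNA with its standard error, for dpi 2, 10 and 42. Triangles are lower bounds for Msr1, which had no count in naive tissue, open symbols were not called, and the dashed line is the limit of 1. Chil3 went from 7.27 at dpi 2 to 1.99 at dpi 42, while Cd14 stayed between 3.43 and 3.58.

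The genes split by time course. From dpi 2 to dpi 10, 2 of the 8 rose and 2 fell, in a comparison where 1.07% of all genes rose and 0.967% fell. The 2 that rose were Lyz2, by 2.12 ± 0.23 on the log2 scale (adjusted p = 5.7e-06), and Ms4a7, by 3.25 ± 0.45 (0.00014). The 2 that fell were Chil3, with -3.92 ± 1.13 (0.041), and Msr1, with -1.95 ± 0.34 (0.0013). Among the others, Plac8 had 1.58 ± 1.47 (0.63, and 0.037 in the fit of the compared groups alone), Mrc1 0.46 ± 0.52 (0.72), Ly6c2 -0.28 ± 1.36 (0.96) and Cd14 -0.03 ± 0.32 (0.99). The call of Chil3 was lost with DESeq2 (adjusted p = 0.12), without both libraries of dpi 2 pool 2 (0.16) and without any 1 of 8 libraries: naive replicate 1, all of dpi 2 and dpi 10, and dpi 42 replicate 2 (0.051 to 0.18).

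From dpi 10 to dpi 42, 0 of the 8 passed in edgeR and 0 in DESeq2, where 0.0757% of all genes fell, and 3 of the 8 had an unadjusted p under 0.05. The libraries of 5 genes at dpi 42 were below those of dpi 10 without overlap, with log2 fold changes of -0.87 for Lyz2 (0.12), -2.46 for Plac8 (0.62), -0.69 for Mrc1 (0.7), -0.84 for Msr1 (0.36) and -1.23 for Ms4a7 (0.26). The share of all genes with libraries separated in this way was not counted. In the fit of the compared groups alone, Plac8 (0.0074) and Ms4a7 (0.0018) passed. From dpi 2 to dpi 42, Lyz2 (1.25 ± 0.23, adjusted p = 0.001) and Ms4a7 (2.01 ± 0.43, 0.005) rose and Chil3 (-5.28 ± 1.21, 0.0091) and Msr1 (-2.79 ± 0.35, 7.3e-05) fell. In that comparison 0.874% of all genes rose and 1.73% fell. Chil3 missed the threshold there without dpi 2 replicate 2 (0.056) or without both libraries of dpi 2 pool 2 (0.051). Its log2 fold change there ran from -6.21 to -4.70 with 1 library left out. The comparisons between times share their libraries and are not independent of each other.

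Levels of different genes were compared per exon length, as RPKM, in which counts are divided by library size and by the length of the exons in kilobases. In naive tissue Lyz2 was first with 6.52 ± 1.51 RPKM and Cd14 second with 1.47 ± 0.18, and from the third place on each gene overlapped its neighbour. At dpi 2 the order was Lyz2 with 436 ± 101, then Cd14 with 16.2 ± 1.61, Msr1 with 15.7 ± 2.07 and Chil3 with 13.7 ± 6.05, of which the last 3 overlapped. Mrc1, Ms4a7, Plac8 and Ly6c2 followed with 1.77, 1.18, 0.822 and 0.495, each overlapping the next. At dpi 10 Lyz2 had 1897 ± 340, Cd14 15.8 ± 2.8, Ms4a7 11.2 ± 1.15 and Msr1 4.07 ± 1.04, all separate, while Chil3 was seventh with 0.899 ± 0.392 and overlapped Ly6c2 below it. At dpi 42 the first 4 kept that order, and Ly6c2 was last with 0.169 ± 0.156, overlapping Chil3 with 0.349 ± 0.34. Ly6c2 never passed 0.495 in a group mean, so among the monocyte markers the level of Lyz2 was of another order than that of Ly6c2 and Plac8.

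Injury also raised the genes that all macrophages and microglia share. The 8 pan-macrophage genes (Aif1, Itgam, Csf1r, Cd68, Ptprc, Adgre1, Fcer1g and Tyrobp) summed to 134 to 160 CPM in naive total RNA, 798 to 847 at dpi 2, 1459 to 1844 at dpi 10 and 939 to 1310 at dpi 42, and 8 of 8 rose at each time. Taken as a percentage of that sum, Chil3 went from 0.101 ± 0.125 in naive tissue to 2.7 ± 1.14 at dpi 2, 0.0901 ± 0.0292 at dpi 10 and 0.05 ± 0.0447 at dpi 42. At dpi 10 and dpi 42 its libraries overlapped the naive ones on this scale. Lyz2 went from 5.95 ± 0.75 to 69.8 ± 15.8, 157 ± 20.9 and 115 ± 14.4, and Ms4a7 from 0.052 ± 0.025 to 0.641 ± 0.259, 3.13 ± 0.15 and 1.76 ± 0.37.

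Msr1, absent from naive counts, was at 12.1 ± 1.24 percent at dpi 2, 1.61 ± 0.19 at dpi 10 and 1.24 ± 0.16 at dpi 42. Cd14, a plateau in CPM, was at 1.8 ± 0.36 percent in naive tissue, 3.41 ± 0.26 at dpi 2, 1.72 ± 0.10 at dpi 10 and 2.62 ± 0.38 at dpi 42, so its dpi 10 libraries overlapped the naive ones on this scale. Mrc1 was at 0.564 ± 0.380, 1.37 ± 0.50, 0.982 ± 0.128 and 0.802 ± 0.128 percent, with all groups next to each other overlapping. On this scale 5 of the 8 genes were highest at dpi 2, against 3 in CPM, and Lyz2, Plac8 and Ms4a7 were highest at dpi 10 on both. The Plac8 libraries overlapped on this scale, with 0.267, 0.166 and 0.0478 percent at dpi 2 and 0.248, 0.185 and 0.322 at dpi 10. No test was made on these ratios.

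**Figure D3:**
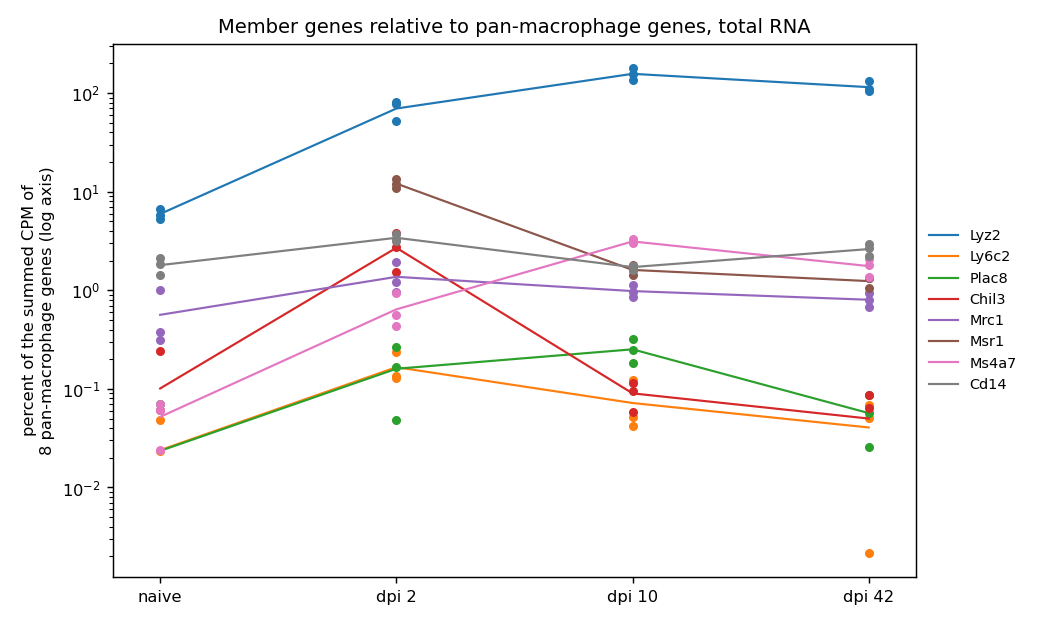
Each gene as a percentage of the summed CPM of 8 pan-macrophage genes in the same total RNA library, on a logarithmic axis, with points for libraries and a line through the means of 3. Libraries at 0, among them all naive libraries of Msr1, are not drawn. Chil3 passes from 2.7 percent at dpi 2 to 0.05 at dpi 42, and Ms4a7 from 0.052 in naive tissue to 3.13 at dpi 10.

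Other cell types moved in the same tissue, and their part in the changes of the 8 genes was not tested. The 10 homeostatic microglia genes summed to 319 to 412 CPM in naive total RNA and to 1191 to 1311, 1702 to 2170 and 1198 to 1510 at dpi 2, 10 and 42, with 5, 6 and 5 of 10 called up. Fcrls and Olfml3 led the list at dpi 2 (log2 fold changes 3.80 and 3.43), while Siglech (-1.08, adjusted p = 0.14) and Slc2a5 (-1.14, 0.49) did not pass. Of 13 neutrophil genes, 5, 4 and 2 rose, and they summed to 22.3 to 30.6 CPM in naive tissue, 50.1 to 75.9 at dpi 2, 86.5 to 123 at dpi 10 and 73.1 to 82.3 at dpi 42. The defining neutrophil gene Ly6g was at 0 in naive and dpi 42 libraries and averaged 0.056 and 0.182 CPM at dpi 2 and dpi 10. Of 12 lymphocyte genes 0, 2 and 2 rose, with sums of 0.285 to 7.71 CPM over all groups.

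The 7 erythroid genes, which mark red cells, summed to 1.87 to 11.9 CPM in naive tissue and 63.6 to 129 at dpi 2. They summed to 13.1 to 50.5 at dpi 10 and 28 to 75.2 at dpi 42. The numbers called up at dpi 2, 10 and 42 were 4, 2 and 2 of 7. Where their RNA came from was not tested. Hba-a1 had 0.932 ± 0.790 CPM in naive tissue and 18.8 ± 5.9 at dpi 2. Endothelial genes, among them Ly6c1 and Ly6a, summed to 155 to 208, 271 to 435, 175 to 245 and 200 to 237 CPM, with 6, 1 and 0 of 10 called up. Ly6c1 itself rose at dpi 2 by 1.21 ± 0.33 on the log2 scale (adjusted p = 0.0056) and was at 0.01 at dpi 10. Neuronal genes fell, with 6, 4 and 1 of 8 called down, where 1086, 527 and 137 of the 17167 genes were called down, and with sums of 8178 to 8639, 3580 to 4574, 3642 to 4132 and 4438 to 6650 CPM. With library sizes alone, 546, 195 and 49 of all genes were called down, and the neuronal sums were 8991 to 9472, 4593 to 5855, 4496 to 5212 and 5479 to 7785 CPM. Of 7 astrocyte and 7 Schwann cell genes, 0 astrocyte genes rose at any time and 1 fell at dpi 2, 0, 0 and 1 Schwann cell genes rose, and of 8 fibroblast and mural genes 5, 6 and 5 rose, Col1a1 from 8.54 ± 2.28 CPM to 838 ± 54.9 at dpi 10.

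The lists around the 8 genes were then counted without those genes. Of 9 other genes of classical monocytes, 7 rose at dpi 2, 6 at dpi 10 and 4 at dpi 42, with median log2 fold changes of 5.33, 4.29 and 3.19. S100a4, a calcium-binding protein of migrating cells, had 0.195 ± 0.193 CPM in naive tissue and 11.9 ± 3 at dpi 2. Gpr141, an orphan receptor, had no naive count and 0.469 ± 0.438 CPM at dpi 2. Vcan, a matrix proteoglycan also made by oligodendrocyte precursors, had 1.05 (adjusted p = 0.072) and Ifitm6 1.82 (0.33). Ccr2, the receptor that draws monocytes out of the bone marrow, was chosen after its values were seen: it had 0.16 ± 0.08 CPM in naive tissue, 9.83 ± 3.42 at dpi 2, 6.39 ± 0.43 at dpi 10 and 1.74 ± 0.81 at dpi 42.

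Of 15 other genes of alternative activation, 5 rose at each time, with medians of 2.13, 2.21 and 1.89. The highest and the lowest of the list at dpi 2 all missed the threshold there: Ccl24 (3.71, adjusted p = 0.13) and Retnla, Mgl2 (0.03, 1) and Ccl22 (-0.80, 0.67). Retnla, a secreted protein that interleukin 4 induces strongly in mouse macrophages together with Chil3, had no naive count and 0.0373, 0.335 and 0.374 CPM at dpi 2, 10 and 42. The 5 that rose at dpi 2 were Il4ra, Il13ra1, Cd163, Tgm2 and Stat6, which include a receptor for interleukin 4 and 13 and the transcription factor of the pathway. Apart from Cd163 they fall outside the naming rule and were chosen after their values were seen.

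Of 17 genes of classical activation, none of them among the 8, 7 rose at dpi 2, 9 at dpi 10 and 8 at dpi 42, with medians of 2.54, 3.25 and 2.46. Il1b, the cytokine interleukin 1 beta, had no naive count and 1.16 ± 0.42, 2.29 ± 0.49 and 0.936 ± 0.438 CPM. Tnf had 0.0107, 1.37 ± 0.58, 1.61 ± 0.50 and 0.941 ± 1.02 CPM. The defining enzyme Nos2 stayed between 0.547 and 0.896 CPM in all 4 group means and was not called (adjusted p 0.81 to 0.95), and Il6 and Il12b stayed at or under 0.171 CPM.

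**Figure D4:**
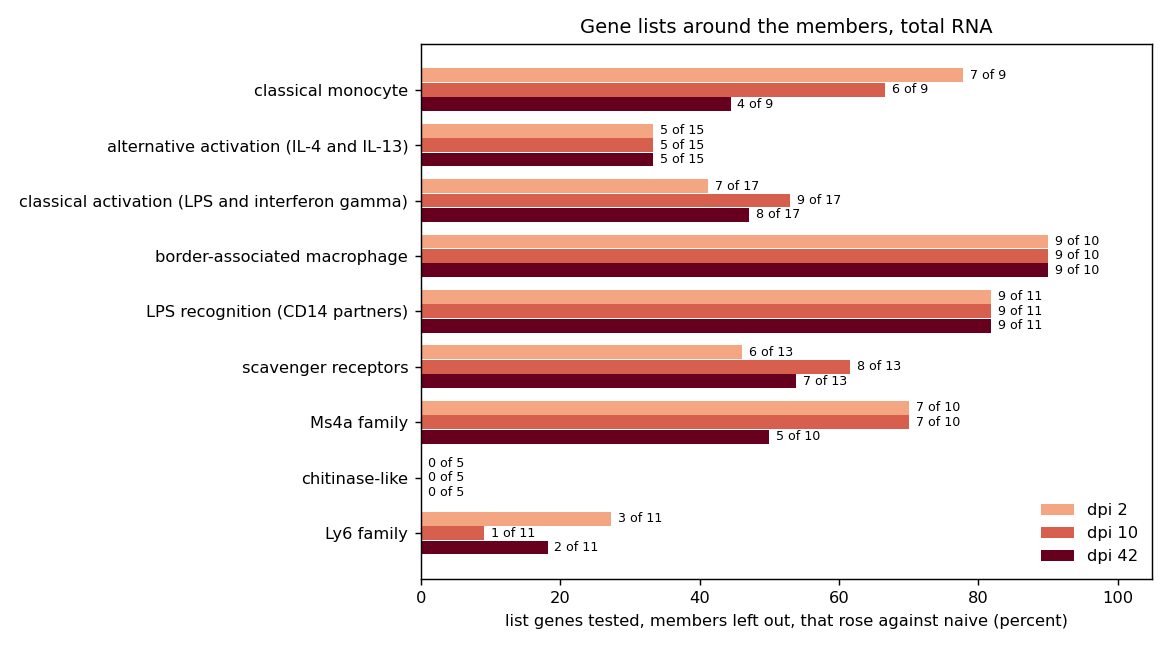
Percentage of the tested genes of each list, with the 8 genes left out, that rose against naive in total RNA at dpi 2, 10 and 42, with the counts beside the bars. Over all genes 10.0%, 9.20% and 6.66% rose. Border-associated macrophage genes (9 of 10) and LPS recognition genes (9 of 11) had the same counts at all 3 times, and chitinase-like genes showed 0 of 5.

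Of 10 border-associated macrophage genes besides Mrc1 and Ms4a7, 9 rose at each time, with medians of 5.23, 4.15 and 3.56. Siglec1, a sialic acid lectin of tissue macrophages, had 0.161 ± 0.116 CPM in naive tissue and 14.9 ± 3.54, 44.4 ± 8.82 and 21.8 ± 5.43 after injury, the order of Ms4a7. Pf4 had 0.267 ± 0.287 and then 17.1 ± 6.81, 6.18 ± 0.45 and 3.18 ± 1.45, highest at dpi 2. Cd163, the haemoglobin scavenger receptor, rose by 3.05, 2.21 and 2.91 on the log2 scale (adjusted p 0.0014, 0.015 and 0.0039), and Cd209f stayed at or under 0.0798 CPM in every group mean. Of 11 partners of CD14 in LPS recognition, 9 rose at each time, Lbp (LPS-binding protein) by 5.56 and Cd180 by 4.08 at dpi 2. The adaptors Ticam1 (0.95) and Tirap (0.91) had adjusted p-values of 0.0018 and 0.0091 but stayed under the limit of 1.

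Of 13 other scavenger receptors, 6, 8 and 7 rose. Cd36, which binds oxidised lipids, had 0.202 ± 0.193 CPM in naive tissue and 16.2 ± 6.97, 35.3 ± 7.11 and 4.31 ± 1.59 after injury, so it was highest at dpi 10, unlike Msr1. Cd68 had 6.75 ± 1.11 and then 200 ± 8.18, 382 ± 69.3 and 287 ± 72.6. Scarb2 (-0.25, adjusted p = 0.061) and Stab2 (-0.18, 0.96) did not pass at dpi 2. Of 10 other tested genes of the Ms4a family, 7, 7 and 5 rose. Ms4a8a had no naive count and 1.36 ± 1.24 CPM at dpi 2 (called), Ms4a3 0.603 ± 0.620 (not called), Ms4a6b rose by 5.00 on the log2 scale, and Ms4a1, the CD20 of B cells, did not pass.

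Of 5 other chitinase-like genes tested, 0 were called at any time in either direction, with Ctbs at 0.77, Chid1 at -0.03, Chia1 at -0.46 and Chit1 at or under 0.138 CPM. Of 11 other Ly6 genes, 3, 1 and 2 rose, among them Ly6a at dpi 2 by 2.22 (0.00019), while Lynx1, a neuronal member, had -0.90 (0.00029) and Ly6i stayed at or under 0.383 CPM.

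In OL, the mean level of Lyz2, Mrc1, Msr1, Ms4a7 and Cd14 was 4.31% to 12.7% of that in total RNA in the groups with OL counts. Chil3 stood at 9.95% at dpi 2 and 34.3% at dpi 42, Plac8 at 7.7%, 2.59% and 24.6% at dpi 2, 10 and 42, and Ly6c2 at 6.81% at dpi 10. All of these except Chil3 at dpi 2 rest on counts in 1 OL library. Of the 8, 6 rose at dpi 2, 5 at dpi 10 and 5 at dpi 42 against naive OL, while 10.2%, 6.82% and 8.54% of all genes rose. Lyz2 had 0.378, 0.254 and 0.497 CPM in naive OL and then 28.2, 40.1 and 28.3 at dpi 2, 121, 136 and 107 at dpi 10, and 97.9, 77.8 and 129 at dpi 42. Its log2 fold change was 6.39 ± 0.33 (adjusted p = 2.6e-11), 8.30 ± 0.35 (1.2e-12) and 8.05 ± 0.34 (2.1e-12).

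Chil3 had no count in naive OL and 1.44, 3 and 2.22 CPM at dpi 2, at least 18.1-fold higher (adjusted p = 0.0023), and no count again at dpi 10. Msr1 had no count in naive OL and 4.04, 2.71 and 6.35 CPM at dpi 2, at least 35.6-fold higher (1.4e-07), then 1.59, 2.24 and 1.79 at dpi 10 (at least 15.3-fold, 7.9e-06) and 0.664, 0.672 and 2.03 at dpi 42 (at least 9.17-fold, 2.4e-05). The dpi 42 bound was 5.45-fold without dpi 42 OL replicate 3. Ms4a7 likewise had none, and then 0.416, 0.567 and 0 at dpi 2 (at least 2.67-fold, 0.0016), 2.95, 2.78 and 2.32 at dpi 10 (at least 21.9-fold, 4.2e-06) and 2.55, 2.91 and 2.62 at dpi 42 (at least 22-fold, 2.9e-06). Its dpi 2 bound was 1.7-fold without dpi 2 OL replicate 2 and 4.01-fold without replicate 3. Chil3 and Msr1 were highest at dpi 2 in OL as in total RNA. The OL libraries of Ms4a7 at dpi 10 and dpi 42 overlapped, while its total RNA libraries at dpi 10 lay above those at dpi 42.

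Cd14 had 0.252, 0 and 0.0765 CPM in naive OL and rose by 4.72 ± 0.50 (adjusted p = 2.3e-07), 3.52 ± 0.52 (6.1e-05) and 4.40 ± 0.50 (1.9e-06). With 1 library left out these values ran from 4.10 to 6.01, 2.97 to 4.88 and 3.80 to 5.71, highest without naive OL replicate 1, which leaves 2 naive OL counts, and lowest without replicate 2. Mrc1 had 0.084, 0 and 0.229 CPM and rose by 2.89 ± 0.74 (0.0036), 3.64 ± 0.73 (0.0012) and 2.89 ± 0.74 (0.0044), with ranges of 2.27 to 4.09, 3.09 to 4.91 and 2.29 to 4.11, highest without naive OL replicate 3, which also leaves 2 counts, and lowest without replicate 2. In the fit of the compared groups alone, Mrc1 missed the threshold at all 3 times (0.062 to 0.21), Ms4a7 at dpi 2 (0.16) and Cd14 at dpi 10 (0.079). With the sample number as a block, Mrc1 missed it at dpi 2 and 10 (0.15 and 0.13) and Ms4a7 at dpi 2 (0.063). Ly6c2 had 6 counts in 1 of the 12 OL libraries and none in the other 11, and Plac8 had counts in 3 OL libraries, 1 at each injury time. At those depths no change of either gene was detectable in OL.

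Measured against total RNA of the same time, the 8 genes were OL depleted, with a log2 ratio past -0.5 and an adjusted p under 0.05, in 3 of 8 cases in naive tissue, 7 of 8 at dpi 2, 7 of 8 at dpi 10 and 6 of 8 at dpi 42. Over all genes 28.6%, 27.2%, 27.3% and 27.0% were OL depleted by this rule. With library sizes alone the median log2 ratio of all genes moved from between -0.271 and -0.185 to between -0.796 and -0.685, and 7014, 7437, 7465 and 6887 of the 17167 genes were OL depleted. In naive tissue the 3 were Lyz2 (-4.48 ± 0.34, adjusted p = 2.4e-10), Mrc1 (-2.92 ± 0.73, 0.0018) and Cd14 (-4.49 ± 0.50, 1e-07). In naive total RNA, Msr1, Ly6c2, Plac8, Ms4a7 and Chil3 had 0, 3, 3, 7 and 13 counts over 3 libraries. None of them had a count in naive OL. Depletion could hardly be called at such counts, so the numbers called in naive tissue and after injury are not comparable. The call of Mrc1 was lost in the fit of the compared groups alone (0.06). With 1 library left out, Mrc1 ran from -4.04 to -2.07, with the ends set by naive OL replicate 3 and naive total RNA replicate 1, and Cd14 from -5.70 to -3.79, with the ends set by naive OL replicates 1 and 2. At dpi 2 the ratios were -4.16 ± 0.25 for Lyz2 (2.6e-11), -4.51 ± 0.38 for Msr1 (2.2e-08), -3.99 ± 0.53 for Ms4a7 (3.4e-06), -3.77 ± 0.60 for Mrc1 (1.9e-05), -3.33 ± 1.10 for Chil3 (0.017) and -3.24 ± 0.36 for Cd14 (1.2e-07). Ly6c2, with no OL count, was at least 11.6-fold lower (0.0038). Chil3 lost that call with DESeq2 (0.07), without both libraries of dpi 2 pool 2 (0.097), and without dpi 2 OL replicate 1 or dpi 2 total RNA replicate 2 (0.054 and 0.071).

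At dpi 10 the depletion was -4.36 ± 0.26 for Lyz2 (adjusted p = 9.6e-12), -4.40 ± 0.38 for Cd14 (3.2e-09), -4.21 ± 0.48 for Ms4a7 (3.8e-07), -3.78 ± 0.38 for Msr1 (1.7e-07), -3.47 ± 0.59 for Mrc1 (3.4e-05) and -5.21 ± 1.77 for Plac8 (0.018). Chil3, with no OL count, was at least 12.8-fold lower (0.0026). The call of Plac8 was lost without dpi 10 OL replicate 1 or 2 (0.064 and 0.061), and without replicate 3 its OL group held no count. At dpi 42 the 6 were Lyz2 (-3.75 ± 0.25, 5.9e-11), Cd14 (-3.68 ± 0.36, 2.3e-08), Msr1 (-3.69 ± 0.39, 3.2e-07), Mrc1 (-3.53 ± 0.60, 3.3e-05), Ms4a7 (-2.97 ± 0.46, 1.6e-05) and Ly6c2, at least 4.16-fold lower (0.011), a bound of 2.28-fold without dpi 42 total RNA replicate 3. With the tissue pool as a block, Ly6c2 missed the threshold at dpi 42 (0.076), as it did in the fit of the compared groups alone (0.062).

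**Figure D5:**
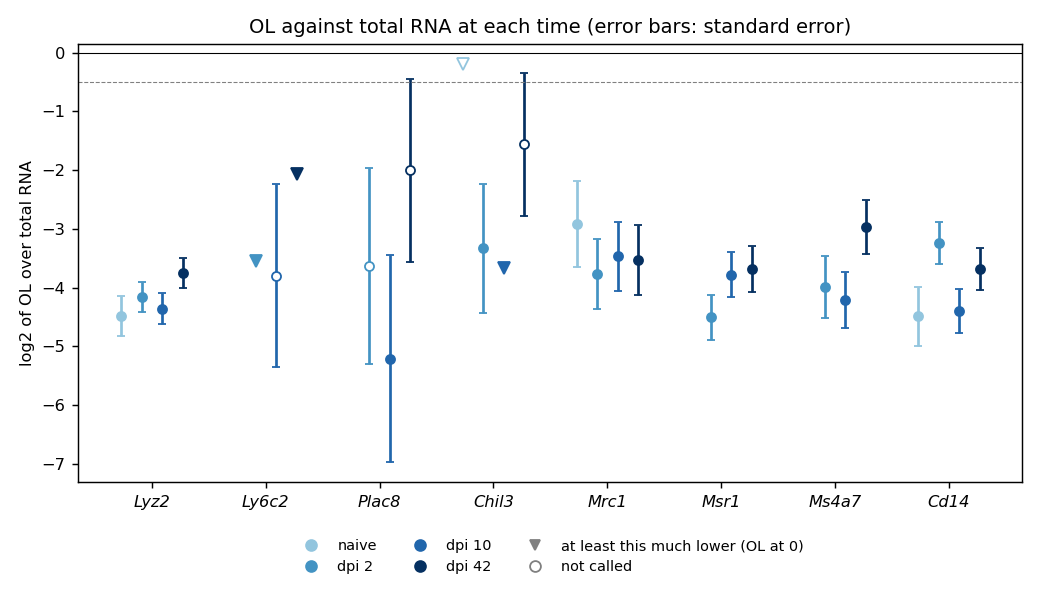
Log2 of the OL over the total RNA level at each time with its standard error. Downward triangles stand for genes without a count in OL, which were at least this much lower, open symbols were not called, combinations at or under the counting limit in both kinds of RNA are left out, and the dashed line is the limit of -0.5. Lyz2 stayed between -4.48 and -3.75 and Cd14 between -4.49 and -3.24.

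In mean CPM, OL Lyz2 was 4.39%, 5.61%, 4.86% and 7.44% of total RNA Lyz2 in naive tissue and at dpi 2, 10 and 42. The summed 8 genes stood at 4.82%, 5.79%, 4.91% and 7.55%, a sum of which Lyz2 made up 92.5% to 94.5% in OL at dpi 10 and dpi 42. The 8 pan-macrophage genes stood at 7.69%, 6.38%, 7.14% and 7.3%. The 8 neuronal genes, whose cells are not meant to carry the tag either, stood at 4.91%, 8.43%, 7.88% and 5.68%. The endothelial genes stood at 11.4%, 6.84%, 11.2% and 10%. The homeostatic microglia list stood at 80%, 22.8%, 16.8% and 19.6%, but 1 of its genes, Sall1, was higher in OL than in total RNA (214 against 57.3 CPM in naive tissue). What part of their OL counts came from RNA of other cells in the pull-down was not tested.

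Whether the change in OL differed from the change in total RNA was tested as the difference of the 2 log2 fold changes. Of the 8 genes, 0 passed at dpi 2, 10 or 42 in edgeR, with 0 under an unadjusted p of 0.05 at each time. Only Lyz2, Mrc1 and Cd14 had counts in naive OL. For the other 5 genes the fitted difference rests on a group at 0, so its size is not given and the missed threshold says little. Over all genes, 3.35% passed upward and 2.92% downward at dpi 2, 1.48% and 1.43% at dpi 10, and 1.56% and 1.42% at dpi 42. These shares moved in smaller fits: without any 1 of the 12 OL libraries, more genes passed downward than upward at each time (266 to 545 up and 695 to 923 down at dpi 2). Why they moved was not tested. DESeq2 passed 1 of the 8, Msr1 at dpi 2. For Lyz2 the difference was 0.33 ± 0.42 at dpi 2 (adjusted p = 0.72), 0.12 ± 0.39 at dpi 10 (0.98) and 0.73 ± 0.43 at dpi 42 (0.35), and for Cd14 it was 1.26 ± 0.63 (0.21), 0.09 ± 0.45 (1) and 0.81 ± 0.63 (0.52). For Mrc1 it was -0.85 ± 1.03 (0.7), -0.55 ± 1.05 (0.89) and -0.61 ± 1.05 (0.86).

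Among 13986 genes with a mean of at least 1 CPM in total RNA, the 3 with the most similar course over the 12 total RNA libraries were found for each of the 8 by Pearson's r of log2 CPM. These 12 libraries form 4 groups, so r mainly follows the group means, and it is given as a description. Lyz2 was closest to Cd48 (r = 0.9975), Ctsh (0.9974) and C1qb (0.9964), and Ms4a7 to Mpeg1 (0.9964), B2m (0.9958) and Unc93b1 (0.9944). Msr1 was closest to Timp1 (0.9958), Emp3 (0.9954) and Vim (0.9945), and Cd14 to Anxa3 (0.990), Nupr1 (0.989) and Hcls1 (0.989). Chil3 was closest to Cenpa (0.974), Ddx21 (0.970) and Kif20a (0.956).

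Plac8 was closest to Rsad2 (0.981), Col14a1 (0.973) and Cped1 (0.972), and Ly6c2 to Ripk3 (0.957), Msrb3 (0.943) and Ube2t (0.9405). Mrc1 was closest to Gpr65 (0.991), Wfdc17 (0.988) and Naip2 (0.9865). Kif20a and Cenpa, near Chil3, act in cell division, and Cd48, C1qb, Mpeg1 and Unc93b1, near Lyz2 and Ms4a7, are genes of immune cells. Ddx21, Ctsh, B2m and the neighbours of the other genes are not described. No kind of gene was tested for enrichment among these neighbours. Among the 8 themselves r was 0.99 between Lyz2 and Ms4a7. It was 0.96 between Msr1 and Cd14, between Lyz2 and Mrc1 and between Lyz2 and Cd14. The value was 0.44 between Lyz2 and Chil3 and 0.33 between Chil3 and Ms4a7.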

How the data were processed

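Counts per gene were deposited for 24 libraries. Per the labels and the study's methods, the authors checked reads with FastQC 0.10.1, aligned them with STAR to mm10 (GRCm38) and counted whole reads per gene with HTSeq 0.10.0. The annotation and the strand setting are not given in the sources used here. Each library is 1 pool of 2 mice, and OL and total RNA of a pool share tissue. The kind of RNA was taken from the description where the title contradicted it.

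The 17167 of 21965 genes whose counts added up to 10 or more entered edgeR 4.0.16 quasi-likelihood tests (R 4.3.3), fitted to all 8 groups together after TMM scaling, with Benjamini-Hochberg adjustment over all genes tested. The SE is the log2 fold change over the square root of F. Calls needed a log2 change past 1 (0.5 for OL against total RNA) and an adjusted p under 0.05. A group without a count was set to 3 counts per library for fold bounds. With 1 to 3 counts, the ratio is given with a 95% counting interval. RPKM used exon lengths of GENCODE M21, which named 21939 genes.

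The 8 genes and all lists were chosen with earlier results of these data known. Of the set of 9 genes, 1 is not reported here. Unless said otherwise, genes named from a list were among the 2 with the highest and the 2 with the lowest change of total RNA at dpi 2 and the defining markers at or near 0. Alternatives were DESeq2 1.42.0 and its size factors, library sizes alone, other count filters, the compared groups alone, each library left out, dpi 2 pool 2 left out, and blocks. The tissue pool pairs OL with total RNA by design, and deviations of the libraries of a pool correlated at 0.0879 to 0.108 at dpi 2 and at -0.0109 to 0.02 at dpi 42. The main fit left this pairing out, because labels of dpi 42 libraries conflict and the pairing there rests on library numbers. The script was tested on simulated counts. Intervals and bounds cover counting error only.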

Additional observations from a re-analysis of the deposited data

How the results depend on the processing

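All 8 genes stayed called at dpi 2 without both libraries of dpi 2 pool 2. Every call held its direction and its side of the thresholds under library sizes alone, DESeq2 size factors, the stricter edgeR filter and the fit of every gene with a count. Library sizes alone moved the median of all genes in total RNA from -0.103 to 0.093 at dpi 2, from -0.104 to 0.054 at dpi 10 and from -0.083 to 0.023 at dpi 42.

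Among counts of calls, that of dpi 42 against dpi 10 in total RNA was 2 in the fit of the compared groups alone, in which 29 of the 17167 genes rose and 186 fell, against 0 and 13 in the fit of all groups. That of dpi 10 against naive in total RNA was 5 without naive replicate 1 and ran from 5 to 8 with 1 library left out. That of OL at dpi 10 was 3 in the fit of the compared groups alone, in which 722 of the 17167 genes rose against 1170 in the fit of all groups, and that of the OL and total RNA difference at dpi 2 was 1 with DESeq2 (Msr1, with no naive count in either kind of RNA). Signs turned for 3 uncalled changes between injury times in total RNA. With 1 library left out, Ly6c2 at dpi 10 against dpi 2 ran from -0.78 to 0.03, Cd14 at dpi 10 against dpi 2 from -0.18 to 0.07, and Mrc1 at dpi 42 against dpi 2 from -0.44 to 0.13. Without both libraries of dpi 2 pool 2, Cd14 had 0.05 and Mrc1 had 0.13 in the same comparisons. Fitted OL and total RNA differences of genes without a naive OL count are not given, since their size and sign rest on groups at 0. Over all genes, those called down against naive in total RNA ran with 1 library left out from 714 to 1159, 274 to 520 and 55 to 205 at dpi 2, 10 and 42. These fits hold fewer samples, and the cause of the moves was not tested.

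With the sample number as a replicate block, 3 calls in OL were lost: Mrc1 at dpi 2 (2.88, adjusted p = 0.15), Ms4a7 at dpi 2 (5.83, 0.063) and Mrc1 at dpi 10 (3.73, 0.13). Libraries of different groups with the same number correlated at -0.143 to 0.248, and those with different numbers at -0.174 to 0.208. For naive OL and dpi 2 OL, the pairs of the same number had 0.1, 0.09 and 0.248. Their pairs of different numbers had -0.174 to 0.0913. Whether a number stands for a shared batch was not tested. The numbers at dpi 42 follow accession order and were not used. With the tissue pool as a replicate block, Ly6c2 in OL against total RNA at dpi 42 missed the threshold (adjusted p = 0.076), and no other call of a gene was lost. Library sizes alone moved 14 of 64 levels per length by over 1 SD, and 4 genes in place of 8 moved 20 of 32 ratios to pan-macrophage genes. For Ly6c2, Plac8 and Chil3, few counts in naive tissue set the size of the ratios: without naive replicate 2, Ly6c2 is left with 1 naive count and Chil3 with 3, and without naive replicate 3 Plac8 has none. In OL against total RNA, Ms4a7 at dpi 2 was -4.66 without dpi 2 OL replicate 2 and Msr1 at dpi 42 was -4.45 without dpi 42 OL replicate 3.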
